A study of Mus musculus with 9 samples.

Results

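Of the 321 metabolic genes on the array, 77 gave an intensity of 10 units or less on every one of the 9 arrays and are called silent here. A unit is the scanner's median pixel intensity of a gene's spot minus its local background, unscaled. The other 244 genes divided into 65 that exceeded 10 units on 1 to 8 arrays and 179 that exceeded it on all 9. Genes were chosen by these readings, so their low level is a description and was not tested. "Silent" means under that limit: each gene had 1 spot, and whether its probe can detect its mRNA was not tested.

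The cells were 3T3-L1, a mouse preadipocyte line that stores fat once hormonal inducers are given to confluent cultures. Chickpea cultures were taken on days 2, 4, 6 and 8 in inducing medium that held 0.5% CP, which the sample titles call chickpea. What CP held is not given in the labels. Control cultures were taken on days 2, 4, 6 and 8 in the same medium without additive, and on day 0 as confluent preadipocytes that had received no inducer. All induced cultures received methylisobutylxanthine, dexamethasone and insulin with fetal bovine serum for the first 2 days, and insulin with serum afterwards. Each medium and day had 1 array, so no value carries a replicate error. The number of arrays limits the precision, and culture, array and condition cannot be told apart. The scanner's well names match no sample label, and each sample was tied to its well by equal values.

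Many genes of glucose and lipid metabolism are switched on by tissue-specific transcription factors. The liver makes bile acids, releases glucose and secretes apolipoproteins under factors such as HNF4A and FOXA2. Pancreatic beta cells make insulin under PDX1 and NEUROD1. Brown fat produces heat through UCP1. An array built around the metabolic syndrome carries probes for genes of several organs, while 3T3-L1 cells model the white fat cell.

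Most genes of the liver, islet, gut, immune and brain lists were silent, and no gene of the adipocyte list was. Of the liver list, 14 of 19 genes on the array were silent (73.68%), as were 11 of 14 islet genes (78.57%), 4 of 6 gut genes (66.67%), 5 of 6 immune genes (83.33%), 4 of 8 vessel, heart and kidney genes (50%) and 2 of 2 brain and appetite genes. The muscle list had 1 of 3 silent and the brown fat list 2 of 5. In the muscle list Pfkm was above the limit on 9 arrays and Ucp3 on 5. In the brown fat list Ppargc1b was above it on 9 arrays, Ppargc1a on 8 and Adrb3 on 2. Over all 321 genes the share was 23.99%. Of 14 genes of the adipocyte list 0 were silent, with 6 above the limit on all 9 arrays and 8 on some. Each gene of that list passed the limit on at least 1 array, Lep on 1 only. Of 8 preadipocyte genes 1 was silent, Wnt10b. Lists share members (Hnf4a and Slc2a2, for example, count as both liver and islet), and the shares describe these arrays without a test. Exceptions in the liver list included Apoc3, Crp and Pklr, and in the islet list Gcg and Glp1r, each above the limit on some arrays. In whole cultures, fewer cells of a type and less RNA per cell cannot be told apart.

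**Figure D1:**
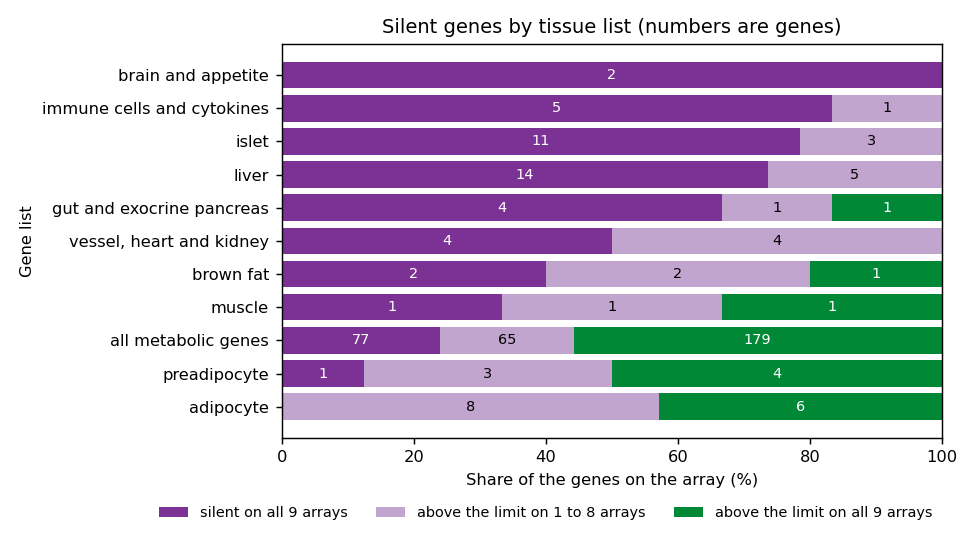
Share (%) of each list's genes on the array that were silent, above 10 units on 1 to 8 arrays, or above on all 9; numbers are genes. Liver (19 genes on the array), islet (14), immune (6) and brain (only 2) lists were mostly silent, and the adipocyte list (14) had 0 silent genes.

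Within the silent genes most readings lay at the bottom of the scale. Across the 693 readings (77 genes on 9 arrays) the median was 1 unit, 65.95% were at 1 unit or less and 8.081% were at 5 units or more. The highest reading was 0 units or less for 3 genes, at most 2 units for 40 and at most 5 units for 60. The remaining 17 reached 6 to 10 units on some array. Blank spots, 41 per array, comprised 25 empty positions and 16 spots of 4 probes taken as negative controls from their names. The 369 blank readings had a median of 0 units, 92.68% at 1 unit or less and 2.71% at 5 units or more. Silent genes averaged 1.43 units, against 0.19 units for the blanks. Of the blank readings 3 exceeded 10 units, all from 1 spot of the luciferase-named probe PPYLUC.

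**Figure D2:**
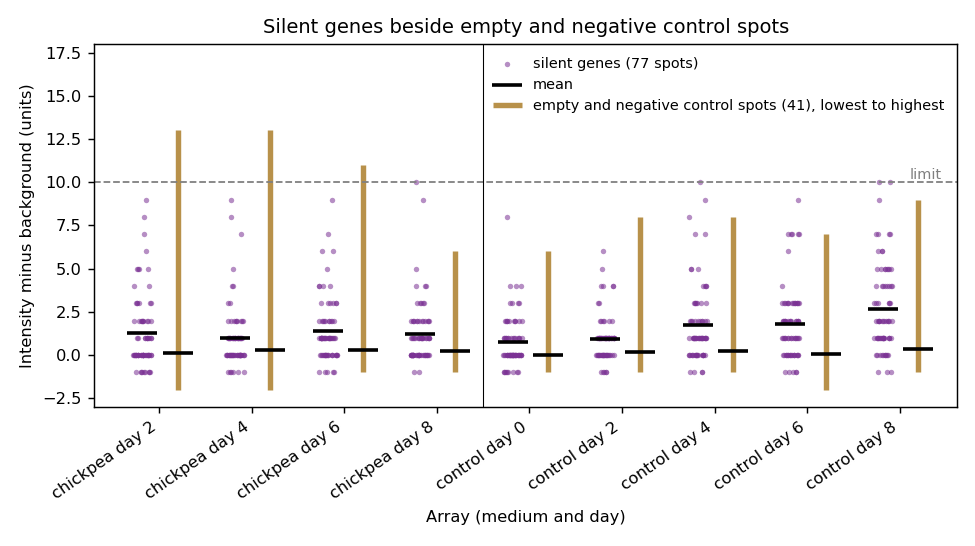
Intensity minus background (units) of the 77 silent genes beside 41 empty and negative control spots on each array, chickpea arrays first; points are silent genes, vertical bars run from the lowest to the highest blank spot, short black lines are means and the dashed line is the limit of 10 units. Most points lie between -1 and 2 units, and the 3 bars that pass the line owe it to the luciferase-named spot.

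Set against the 99th percentile of the blank spots on the same array, 63 of the 77 genes were at or under it on all 9 arrays. The other 14 exceeded it on 1 array or more: Fabp3 on 5 arrays, Wnt10b on 4, Tek on 3, Gys2 and Icam1 on 2 each, and the rest, among them Ppp2r2b, Rasgrp4, Cyp8b1, Ehhadh, Tg, Enpp1 and Irs3, on 1 each. By the mean pixel intensity of the spot in place of the median, 41 of the 77 genes stayed at 10 units or less on all 9 arrays and 36 did not. For the 14 genes above the blank percentile the word silent holds by the limit of 10 units and not by the blanks. With 41 blanks per array, that percentile is set mostly by the brightest blank spot. On chickpea day 2 it was 9 units, where the brightest blank read 13 units. All 225 readings of empty spots were at 1 unit or less, while 6.944% of the negative control readings reached 5 units or more. Being at or under the percentile therefore does not show that the 63 genes read like empty spots.

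**Figure D3:**
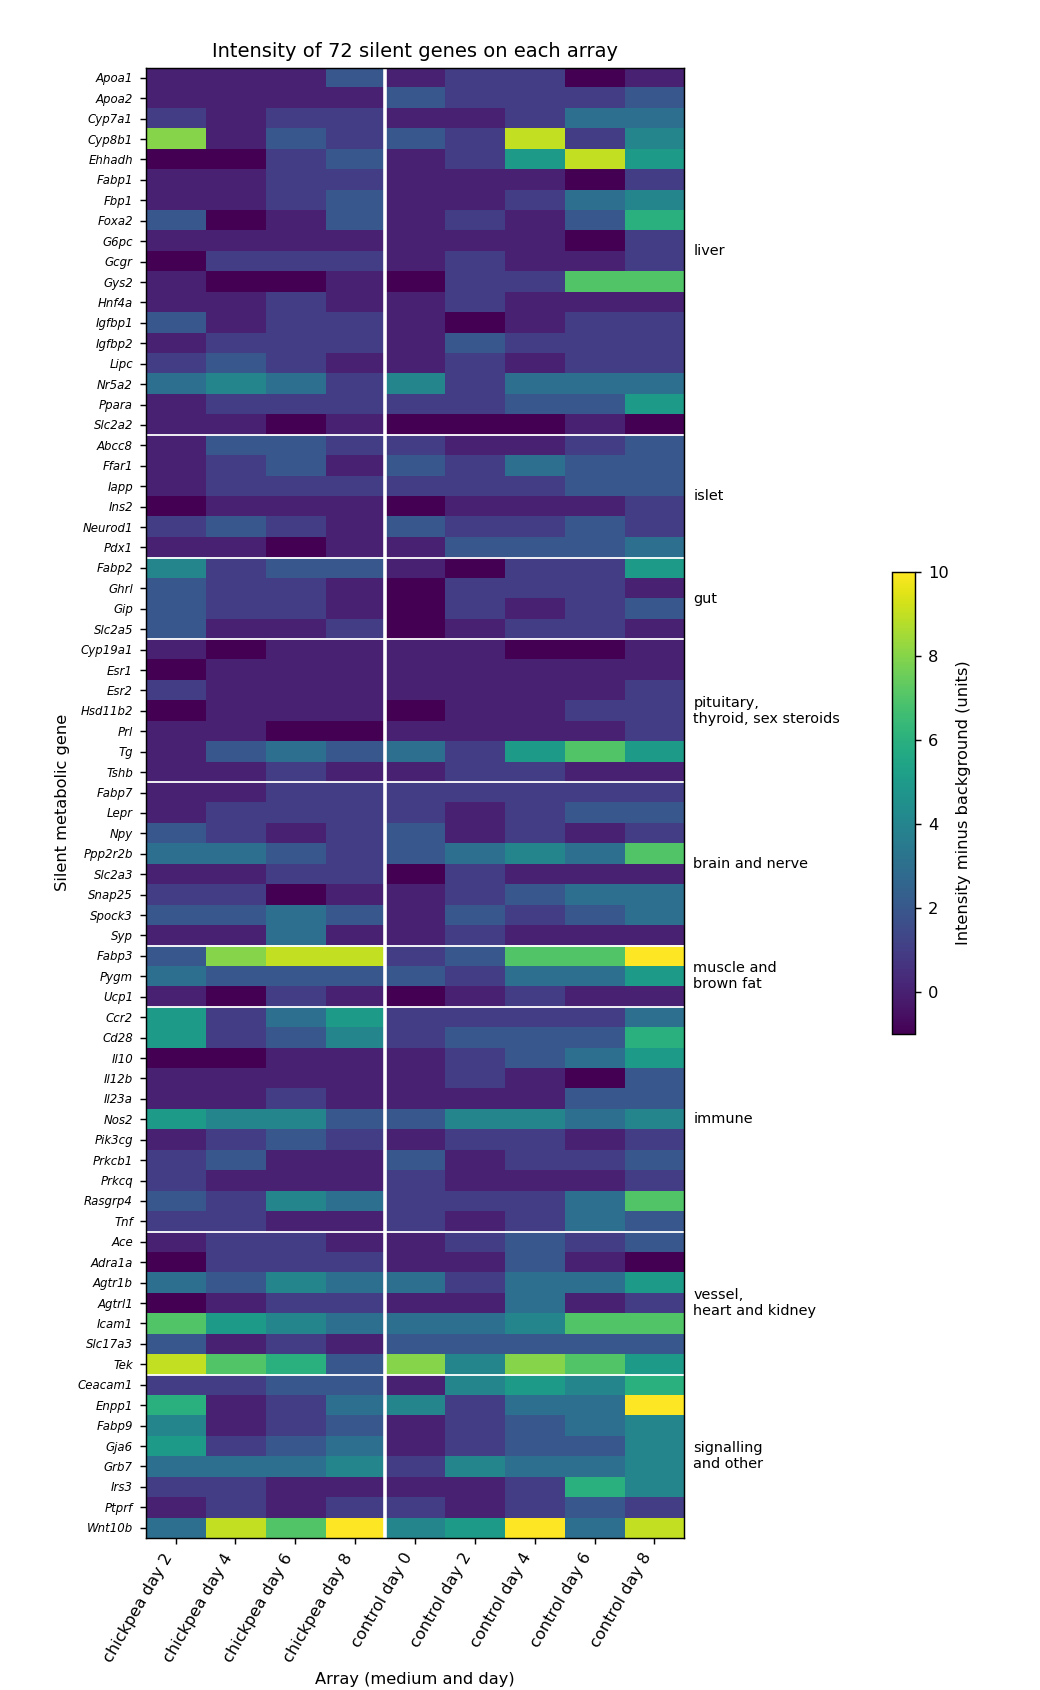
Intensity minus background (units, colour) of 72 silent genes (rows, grouped by role) on the 4 chickpea and 5 control arrays (columns). Most cells lie near 0, and Fabp3, Wnt10b and Tek have the highest medians over the 9 arrays, 7 units each.

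Liver genes formed the largest group, with 20 members whose highest readings had a median of 2 units. Secreted and transport proteins were Apoa1 and Apoa2, the main proteins of high-density lipoprotein, Igfbp1 and Igfbp2, which bind insulin-like growth factors, the hepatic lipase Lipc, the liver fatty acid binding protein Fabp1 and the glucose transporter Slc2a2. Apoa1 gave 0, 0, 0 and 2 units on the chickpea arrays (days 2, 4, 6 and 8), against 0, 1, 1, -1 and 0 units on the control arrays (days 0, 2, 4, 6 and 8). Slc2a2 read 0, 0, -1 and 0 units in chickpea medium and -1, -1, -1, 0 and -1 units in control medium. Slc2a2 stayed at 0 or -1 units throughout and Apoa1 at or under 2 units, and in both genes the media overlapped.

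Enzymes of the liver group were G6pc, which releases free glucose from glucose 6-phosphate, Fbp1 of gluconeogenesis, the liver glycogen synthase Gys2, the bile acid enzymes Cyp7a1 and Cyp8b1, and Ehhadh of peroxisomal fatty acid oxidation. The G6pc spot gave 0, 0, 0 and 0 units in chickpea medium, against 0, 0, 0, -1 and 1 units in control medium. It was at 1 unit or less everywhere. On the chickpea arrays Cyp8b1 read 8, 0, 2 and 1 units, and on the control arrays 2, 1, 9, 1 and 4 units. Its 2 high readings, 8 units on chickpea day 2 and 9 units on control day 4, stood alone, with every other array at 4 units or less. Readings of Ehhadh were -1, -1, 1 and 2 units on the chickpea arrays and 0, 1, 5, 9 and 5 units on the control arrays. Ehhadh was highest on the control arrays of days 4, 6 and 8, with all 4 chickpea arrays at 2 units or less.

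Regulators of the liver group included the transcription factors Hnf4a, Foxa2 and Nr5a2, the nuclear receptor Ppara, which drives fatty acid oxidation genes, and the glucagon receptor Gcgr. Hnf4a read 0, 0, 1 and 0 units in chickpea medium and 0, 1, 0, 0 and 0 units in control medium. Foxa2 gave 2, -1, 0 and 2 units on the chickpea arrays (days 2, 4, 6 and 8), against 0, 1, 0, 2 and 6 units on the control arrays (days 0, 2, 4, 6 and 8). Hnf4a did not pass 1 unit, and Foxa2 had its highest reading on control day 8. On the chickpea arrays Ppara read 0, 1, 1 and 1 units, and on the control arrays 1, 1, 2, 2 and 5 units. Ppara also read highest on control day 8, at 5 units, and was at 2 units or less on the other 8 arrays.

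Islet genes numbered 6, and the highest reading of any was 3 units. They were insulin itself (Ins2), the co-secreted peptide Iapp, the beta cell transcription factors Pdx1 and Neurod1, the potassium channel subunit Abcc8, which is the sulphonylurea receptor, and the fatty acid receptor Ffar1. The Ins2 spot gave -1, 0, 0 and 0 units in chickpea medium, against -1, 0, 0, 0 and 1 units in control medium. Readings of Pdx1 were 0, 0, -1 and 0 units on the chickpea arrays and 0, 2, 2, 2 and 3 units on the control arrays. Ins2 lay at -1 to 1 units. Pdx1 was at 2 or 3 units on the control arrays of days 2 to 8 and at 0 or -1 units on all chickpea arrays. The media therefore did not overlap on those days, over a gap of 2 units. How many other silent genes separate the media in this way is not given here. Pdx1 was not called in the test of medium described below. By the median of all genes, control arrays were brighter than chickpea arrays on days 4, 6 and 8 and dimmer on day 2. The part of that brightness in the Pdx1 readings was not tested.

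Gut genes numbered 4: the hunger hormone ghrelin (Ghrl), the incretin Gip, the intestinal fatty acid binding protein Fabp2 and the fructose transporter Slc2a5. Ghrl read 2, 1, 1 and 0 units in chickpea medium and -1, 1, 1, 1 and 0 units in control medium. Fabp2 gave 4, 1, 2 and 2 units on the chickpea arrays (days 2, 4, 6 and 8), against 0, -1, 1, 1 and 5 units on the control arrays (days 0, 2, 4, 6 and 8). Ghrl did not exceed 2 units, and Fabp2 reached 4 units on chickpea day 2 and 5 units on control day 8. Brain and nerve genes numbered 9, among them the appetite peptide Npy, the leptin receptor Lepr, the synaptic proteins Snap25 and Syp, the proteoglycan Spock3, the brain fatty acid binding protein Fabp7, the neuronal glucose transporter Slc2a3 and the phosphatase subunit Ppp2r2b. On the chickpea arrays Npy read 2, 1, 0 and 1 units, and on the control arrays 2, 0, 1, 0 and 1 units. The Lepr spot gave 0, 1, 1 and 1 units in chickpea medium, against 1, 0, 1, 2 and 2 units in control medium. Both reached 2 units at most, with overlapping media, while Ppp2r2b reached 7 units on control day 8.

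Pituitary, thyroid and sex steroid genes numbered 8, among them the pituitary hormones Prl and Tshb, thyroglobulin (Tg), aromatase (Cyp19a1), the estrogen receptors Esr1 and Esr2, and Hsd11b2, which inactivates glucocorticoid in the kidney. The highest reading was 0 units for Cyp19a1 and Esr1 and 1 unit for Esr2, while Tg reached 7 units. Silent muscle and brown fat genes numbered 3. They were the muscle glycogen phosphorylase Pygm, the heart and muscle fatty acid binding protein Fabp3, and Ucp1, the uncoupling protein of brown fat. Ucp1 read 0, -1, 1 and 0 units in chickpea medium and -1, 0, 1, 0 and 0 units in control medium. Readings of Pygm were 3, 2, 2 and 2 units on the chickpea arrays and 2, 1, 3, 3 and 5 units on the control arrays. Ucp1 stayed between -1 and 1 units in both media and at every day, and Pygm was highest on control day 8.

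Fabp3 gave 2, 8, 9 and 9 units on the chickpea arrays (days 2, 4, 6 and 8), against 1, 2, 7, 7 and 10 units on the control arrays (days 0, 2, 4, 6 and 8). It read 2 units or less on day 0 and on both day 2 arrays, and 7 to 10 units on all 6 arrays of days 4, 6 and 8. With the day 0 reading of 1 unit set beside 9 units in chickpea medium and 10 units in control medium on day 8, Fabp3 had the largest fitted day 8 difference of the 77 genes.

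Silent immune genes numbered 12. Among them were the cytokines Tnf, Il10, Il12b and Il23a, the monocyte chemokine receptor Ccr2 and the T cell costimulator Cd28. The inducible nitric oxide synthase Nos2, the kinases Pik3cg, Prkcq and Prkcb1, and the mast cell exchange factor Rasgrp4 belonged there too. Other immune genes of the array passed the limit, Ccl2, Csf1, Il4ra and Mif on all 9 arrays and Ccl5, Il6 and Ctla4 on some. Of these, the immune list held only Il6, so its silent share does not stand for all immune genes of the array. The Tnf spot gave 1, 1, 0 and 0 units in chickpea medium, against 1, 0, 1, 3 and 2 units in control medium. Il10 read -1, -1, 0 and 0 units in chickpea medium and 0, 1, 2, 3 and 5 units in control medium. Tnf stayed at 3 units or less. Il10 was at 0 or -1 units on the chickpea arrays and at 1 to 5 units on the control arrays of days 2 to 8. The limits given for Pdx1 hold for Il10 too. On the chickpea arrays Ccr2 read 5, 1, 3 and 5 units, and on the control arrays 1, 1, 1, 1 and 3 units. Readings of Nos2 were 5, 4, 4 and 2 units on the chickpea arrays and 2, 4, 4, 3 and 4 units on the control arrays. Ccr2 was highest on chickpea days 2 and 8, and Nos2 lay between 2 and 5 units on all 9 arrays, with overlapping media in both genes.

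Vessel, heart and kidney genes numbered 7: the angiotensin converting enzyme Ace, the angiotensin receptor Agtr1b, the apelin receptor (Agtrl1 on the array, now Aplnr), the adrenergic receptor Adra1a, the endothelial receptor kinase Tek, the adhesion molecule Icam1 and the kidney transporter Slc17a3. Tek gave 9, 7, 6 and 2 units on the chickpea arrays (days 2, 4, 6 and 8), against 8, 4, 8, 7 and 5 units on the control arrays (days 0, 2, 4, 6 and 8). Tek was above 1 unit on every array, with its lowest reading on chickpea day 8.

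Signalling and remaining genes numbered 8: Enpp1, an ectoenzyme that inhibits the insulin receptor, the adaptor Grb7, the insulin receptor substrate Irs3, the phosphatase Ptprf, the secreted Wnt10b, which holds back fat cell formation, Ceacam1 of hepatic insulin clearance, the connexin Gja6 and the testis fatty acid binding protein Fabp9. The Enpp1 spot gave 6, 0, 1 and 3 units in chickpea medium, against 4, 1, 3, 3 and 10 units in control medium. On the chickpea arrays Wnt10b read 3, 9, 7 and 10 units, and on the control arrays 4, 5, 10, 3 and 9 units. Enpp1 had its highest reading on control day 8. Wnt10b lay at 3 to 10 units on all 9 arrays without a common order by day or medium.

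Beside Enpp1, Fabp3 and Wnt10b, which reached the limit of 10 units, the genes closest under it were Cyp8b1, Ehhadh and Tek at 9 units. Just above the limit, the lowest maxima were Igfbp5 at 11 units, Adra1b at 12, Tcf7 at 13, Cfb and Thrb at 14, Prkaa2 at 15, Lep at 16, Thbs4 at 17, and Kdr and Me3 at 20 units. Lep, the adipocyte hormone leptin, gave 0, 1, 0 and 0 units in chickpea medium and 0, 0, 1, 8 and 16 units in control medium. Igfbp5, Prkaa2 and Lep passed the limit on control day 8 alone and Adra1b on day 0 alone, so membership next to the limit depended on 1 array for these 4 genes.

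In several gene families the silent members stood beside relatives above the limit, read against the limit only, since different probes' levels are not comparable. Of 7 fatty acid binding proteins, 5 were silent (Fabp1, Fabp2, Fabp3, Fabp7 and Fabp9), and Fabp4 and Fabp5, the adipocyte and epidermal forms, were above the limit on all 9 arrays. Of 5 glucose transporters, Slc2a2, Slc2a3 and Slc2a5 were silent, the insulin-responsive Slc2a4 was above the limit on 3 arrays and the widely expressed Slc2a1 on all 9. Of 3 uncoupling proteins Ucp1 was silent, Ucp3 was above the limit on 5 arrays and Ucp2 on all 9. Ppara was silent while Ppard and Pparg were above the limit on all 9 arrays. Irs3 was silent while Irs1 and Irs2 were above it on all 9. Apoa1 and Apoa2 were silent, Apoc3 was above the limit on 3 arrays, and Apod and Apoe on all 9. Among glycogen phosphorylases the muscle form Pygm was silent, the liver form Pygl was above the limit on 3 arrays and the brain form Pygb on all 9.

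Promoter sequence could be read for part of the genes. RefSeq windows of 300 bases, from 250 before to 50 after the start of transcription, were matched for 54 of the 77 silent genes (70.13%) and 135 of the 179 genes above the limit on all 9 arrays (75.42%). Since fewer than 80% of either set had one, a comparison of CG content or TATA boxes between the sets is void. The dinucleotide CG was counted in the window of each family member that had one. Among glucose transporters it occurred 2 times for the silent Slc2a2 and 15 times for the silent Slc2a5, against 18 times for Slc2a1. The silent Irs3 held 6, against 28 for Irs1 and 41 for Irs2. The silent Pygm held 4, against 22 for Pygl and 21 for Pygb. In these 3 families each silent gene counted held fewer than each counted relative that passed the limit. The silent Ucp1 held 15, against 5 for Ucp3 and 21 for Ucp2. The silent Ppara held 30, against 27 for Ppard and 44 for Pparg. The silent Apoa1 and Apoa2 held 4 and 3, against 4 for Apod and 10 for Apoe. In those 3 families the silent genes did not all hold fewer than every relative that passed the limit. Of 27025 mouse promoter windows, 94.22% held a CG, with quartiles of 3, 7 and 21.

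Stretches of 150 bases from 3 pairs are shown, the silent gene first, each beside a relative above the limit on all 9 arrays. They are RefSeq sequence of GRCm38.p6, 5′ to 3′ on the gene's strand, with each CG (its own reverse complement, so found on both strands) in capitals. The positions are chr3:28697753-28697902, plus strand, for Slc2a2; chr4:119108595-119108744, plus strand, for Slc2a1; chr5:137645715-137645864, minus strand, for Irs3; chr1:82291440-82291589, minus strand, for Irs1; chr19:6384258-6384407, plus strand, for Pygm; and chr2:150786646-150786795, plus strand, for Pygb.
Slc2a2: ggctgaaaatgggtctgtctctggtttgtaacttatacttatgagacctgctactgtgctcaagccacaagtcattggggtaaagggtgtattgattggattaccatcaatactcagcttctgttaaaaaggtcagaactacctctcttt
Slc2a1: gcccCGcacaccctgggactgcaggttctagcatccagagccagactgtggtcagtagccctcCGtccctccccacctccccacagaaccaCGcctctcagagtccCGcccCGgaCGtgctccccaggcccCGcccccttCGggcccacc
Irs3: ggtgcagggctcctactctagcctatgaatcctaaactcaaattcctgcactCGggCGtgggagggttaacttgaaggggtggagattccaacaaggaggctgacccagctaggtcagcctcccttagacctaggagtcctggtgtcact
Irs1: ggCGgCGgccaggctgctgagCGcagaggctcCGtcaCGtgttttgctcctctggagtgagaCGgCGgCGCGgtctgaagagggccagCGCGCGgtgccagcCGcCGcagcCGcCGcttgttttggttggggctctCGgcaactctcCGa
Pygm: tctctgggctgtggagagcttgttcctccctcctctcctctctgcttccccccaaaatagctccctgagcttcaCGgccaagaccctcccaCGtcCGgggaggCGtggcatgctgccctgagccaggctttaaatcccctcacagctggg
Pygb: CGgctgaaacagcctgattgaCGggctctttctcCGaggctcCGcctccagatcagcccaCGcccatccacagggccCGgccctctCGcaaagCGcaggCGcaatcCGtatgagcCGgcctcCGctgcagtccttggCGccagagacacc
The shown stretch held 0 CG for Slc2a2 and 8 for Slc2a1, 2 for Irs3 and 18 for Irs1, and 4 for Pygm and 13 for Pygb. These 3 pairs were picked after the counts were seen, and a count of letters is a description of the window. All 3 come from the families in which the silent genes counted held fewer CG. Slc2a2 (2 in the whole window) was shown and Slc2a5 (15) was not. Pairs from the other families, such as Ppara (30) and Ppard (27), are not shown either, so the stretches do not stand for silent genes in general.

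The first comparison the design allows is chickpea against control medium on the same day. In units, chickpea was higher than control for 29 of the 77 silent genes, lower for 29 and equal for 19 on day 2. On day 4 the counts were 13 higher, 35 lower and 29 equal, on day 6 they were 26, 32 and 19, and on day 8 they were 9, 51 and 17. The difference was 1 unit or less for 54, 60, 53 and 36 genes on days 2, 4, 6 and 8. On day 8 the 18 silent genes that reached 5 units or more in control medium (against 3 in chickpea medium) were Enpp1, Fabp3, Wnt10b, Gys2, Icam1, Ppp2r2b, Rasgrp4, Cd28, Ceacam1, Foxa2, Agtr1b, Ehhadh, Fabp2, Il10, Ppara, Pygm, Tek and Tg. Of them, 8 reached 5 units on that array alone: Ppp2r2b, Fabp2, Il10, Rasgrp4, Foxa2, Ppara, Pygm and Agtr1b.

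The brightness of the whole array moved with these readings. The median of all 321 genes was 64 units on chickpea day 8 and 168 units on control day 8, the highest of the 9 arrays. By day, the medians were 83, 55, 64 and 64 units in chickpea medium (days 2, 4, 6 and 8), against 57, 47, 129, 129 and 168 units in control medium (days 0, 2, 4, 6 and 8). The silent genes averaged 1.27, 1.01, 1.40 and 1.23 units in chickpea medium and 0.75, 0.95, 1.74, 1.82 and 2.69 units in control medium. The blanks averaged 0.24 units on chickpea day 8 and 0.34 units on control day 8, and 2 and 1 of the 41 reached 5 units there. The part of array brightness in the silent genes' readings was not tested.

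A limma fit tested the same-day medium difference for all 321 genes on the log2(units + 16) scale, with day as a block and Benjamini-Hochberg adjustment over the 321 genes. It called 14 genes at an adjusted p of 0.05 (4.36%), of which 2 were higher (0.623%) and 12 lower (3.74%) in chickpea medium. After quantile scaling 22 were higher and 17 lower, so the split over all genes depended on the scaling. None of the silent genes was called, a count of 0 of 77, and 1 had an unadjusted p under 0.05, against 68 of all 321. Their cap of 10 units limits any difference they can show, and differences of low genes are understated on this scale. The median difference was -0.02 for the silent genes and -0.15 for all 321. Ehhadh had the largest, -0.36 ± 0.13 (SE) on the log2 scale, with an unadjusted p of 0.0422 and a limma adjusted p of 0.211. It was lower in chickpea medium on all 4 days. Next in p were Il10 at -0.27 (limma adjusted p = 0.253), Ceacam1 at -0.25 (0.271) and Gys2 at -0.35 (0.271). In a fit confined to genes above the limit on 2 arrays or more, after quantile scaling and a floor, 36 of the 239 tested were called (15.1%). Of these, 21 were higher (8.79%) and 15 lower (6.28%). Silent genes cannot enter that fit. Leaving out either array of a day takes that day out of the comparison, since its other array is then fitted exactly. The fit over all genes is then nearly the same whichever of the pair is dropped. Its count was 85 without chickpea day 2 (320 genes tested) and 83 without control day 2 (321 tested). It was 0 without any other array of those days, with 0 silent genes called each time. Among genes above the limit, where scaling and filter were redone each time, the count was 70 without chickpea day 2 and 62 without control day 2. It fell to 3 when the chickpea array of day 4 was left out, to 4 for the control array of day 6, and to 0 for chickpea day 6 or control day 4.

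Gys2 read 0, -1, -1 and 0 units in chickpea medium and -1, 1, 1, 7 and 7 units in control medium. Readings of Irs3 were 1, 1, 0 and 0 units on the chickpea arrays and 0, 0, 1, 6 and 4 units on the control arrays. Ceacam1 gave 1, 1, 2 and 2 units on the chickpea arrays (days 2, 4, 6 and 8), against 0, 4, 5, 4 and 6 units on the control arrays (days 0, 2, 4, 6 and 8). Gys2 and Irs3 were above 1 unit only on the control arrays of days 6 and 8. Ceacam1 lay at 4 to 6 units in control medium on days 2 to 8 and at 1 or 2 units in chickpea medium, without overlap. These 3 genes were singled out after their values were seen, and none was called. How many silent genes separate the media without overlap is not given here.

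**Figure D4:**
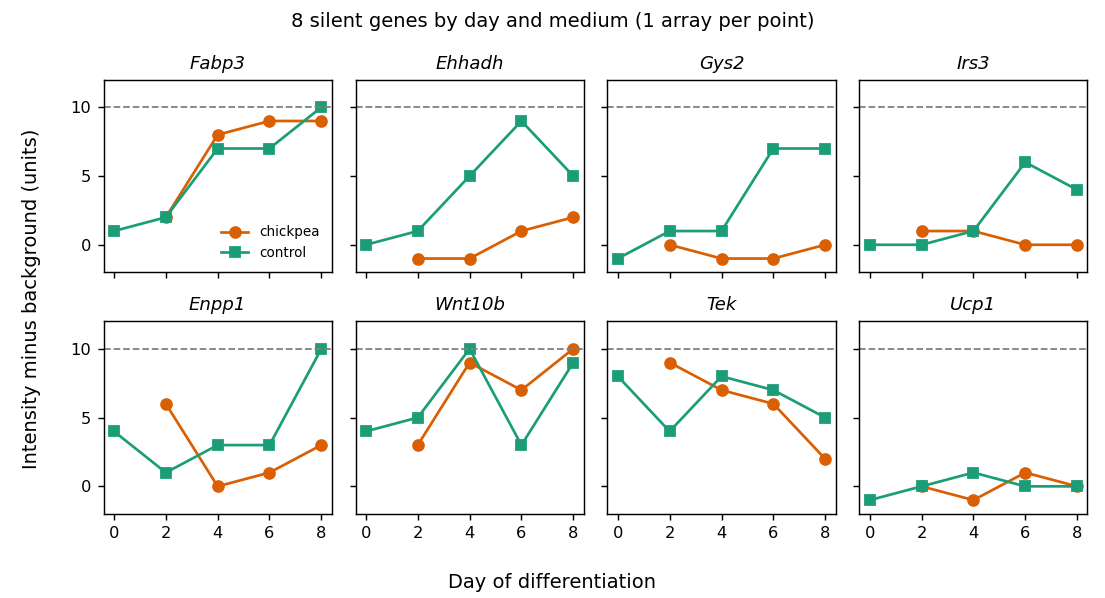
Intensity minus background (units) against day for 8 silent genes chosen after their values were seen, chickpea and control medium in separate lines; points are single arrays and the dashed line is the limit of 10 units. Fabp3 goes up with day in both media, Ehhadh, Gys2 and Irs3 reach 5 units in control medium only, and Ucp1 stays between -1 and 1 units.

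The other comparison is day 8 against day 0, fitted on the 9 arrays together with a term for each day and 1 for medium. The limma fit on log2(units + 16) called 0 of 321 genes (0%), with 31 at an unadjusted p under 0.05 and a lowest adjusted p of 0.134. Its error is the variation of the medium difference over days, and not a replicate spread. A gene that changes with day mainly in 1 medium therefore gets a large error. Adipoq read 0 units on control day 0, 8554 on control day 8 and 86 on chickpea day 8. The count of 0 therefore does not show that genes stayed unchanged. Among the silent genes 0 of 77 were called and 1, Fabp3, had an unadjusted p under 0.05. Its day 8 difference was 0.57 ± 0.18 (SE) on the log2 scale, with an unadjusted p of 0.0344 and a limma adjusted p of 0.479. The median difference was 0.09 for the silent genes and 0.24 for all 321. Here too, the low readings by which silent genes were chosen limit any difference they can show. The day term rests on 1 array of day 0. The count over all genes was 41 without chickpea day 2 and also 41 without control day 2, since either way day 2 drops out of the medium term. In both settings 0 silent genes were called. Restricted to genes above the limit, the day 8 fit called 5 of 239 (2.09%), 3 higher (1.26%) and 2 lower (0.837%). That count was 27 without chickpea day 2, 29 without control day 2 and 0 to 3 without any other array of days 4 to 8.

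On the scale of the deposited value table, low readings looked different. That table rescales each array so that the Gapdh spots average 10000, and adds 2 or 3 units beforehand, so 1 unit was worth between 0.272 and 1.11 deposited intensity depending on array and spot set. On day 2, chickpea exceeded control at least 2-fold for 21 of the 77 (27.3%, against 44.5% of all 321 genes) and was at least 2-fold lower for 1 (1.3%, against 7.79%). On day 4 the counts were 5 higher (6.49%, against 7.79% of all genes) and 6 lower (7.79%, against 31.2%). On day 6 they were 1 higher (1.3%, against 1.87% of all genes) and 15 lower (19.5%, against 38.9%). On day 8 they were 8 higher (10.4%, against 4.36%) and 2 lower (2.6%, against 24.9%). The direction depended on the scale: on day 8, 46 silent genes were higher and 31 lower by the deposited values, while in units 9 were higher and 51 lower.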

How the data were processed

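RNA from 9 cultures was labelled with 1 dye and hybridised to a metabolic syndrome array, and the file headers name GenePix Pro 6.1.0.4 as the scanner software. The deposited scanner table gives median pixel intensity minus local background. Foreground and background columns, another kind of value, were used for alternatives. The deposited value table holds intensity that equals (units + 2 or 3) × 10000 / the mean of the 4 Gapdh spots of its set. That relation was found from the values, at a relative tolerance of 1e-06, and tied 9 wells to samples (354 of 354 entries). No source used here gives the authors' own steps for it. The other 3 wells were not used.

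Fits used limma 3.58.1 (lmFit, eBayes) in R 4.3.3 with Benjamini-Hochberg adjustment, and were tested on simulated data. Log2(units + 16) was taken without floor or filter. Both fits have 3 residual degrees of freedom, and the days serve as the blocks. Their standard errors rest on how the medium difference varied over days, and not on replicates. The restricted fit required more than 10 units on 2 arrays and held control genes too. The members, gene lists and tests were chosen with earlier results of these data known, the role groups after the member list was seen. Silent genes were named, except for some items that are not reported here, with every reading for a list of tissue genes, for the highest of each tissue list and for the 5 highest maxima (Tek tied with them). Gene names are the array's (310 of 321 current RefSeq symbols, 11 synonyms). Alternatives were other limits, offsets, scalings, background corrections and array subsets, and leaving out each array.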

Additional observations from a re-analysis of the deposited data

How the results depend on the processing

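The count of 77 silent genes was 60 with a limit of 5 units, 87 with 20 and 108 with 50, 63 with the blank percentile, 103 on the chickpea arrays alone, 78 on the control arrays alone, and 41 with mean pixel intensity. With each array left out in turn it was 77 to 81, and Glp2r, Igfbp5, Lep and Prkaa2 joined without control day 8. It was 79 on the control arrays of days 2 to 8, a setting chosen after seeing the data. In all 28 settings of both fits on all 321 genes, 0 silent genes were called. These genes were chosen for low readings on the same arrays, which limits any difference they can show. The count of 0 therefore cannot decide whether media or days differ in them. In the chickpea fit on all genes, leaving out either array of a day also gave nearly the same result. The 14 chickpea calls over all genes became 23 with an offset of 4 units, 1 with 64, 1 with deposited values, 39 after quantile scaling (22 higher, 17 lower) and 23 with the mean local background, and 0 to 85 with an array left out. The 36 calls among genes above the limit became 51 with median scaling and 7 with deposited values (1 higher, 6 lower), and 0 to 70 with an array left out. For day 8 against day 0, the 0 calls over all genes became 1 with an offset of 4 units, 1 with deposited values, 4 after quantile scaling and 6 with the mean local background, and 0 to 41 with an array left out (without day 0 the difference cannot be estimated). The 5 calls above the limit became 0 with deposited values, and 0 to 29 with an array left out. Unadjusted p under 0.05 was reached by 33 to 130 genes over the settings of the chickpea fit on all genes and by 15 to 79 in the day 8 fit. The cause was not tested in any of these. Readings of a few units over background, from 1 spot and 1 array each, set what can be told apart. No paired analysis was possible by replicate number because each medium and day had 1 array. The chickpea fits pair the media by day.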

Other observations

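Sets of genes above the limit in 1 medium alone were unequal on days 2 to 8. In chickpea medium 103 genes were at 10 units or less on all 4 arrays, against 79 on the 4 control arrays of the same days. The genes above the limit on a control array and on no chickpea array numbered 25, among them Adrb3, Agtr2, Apoc3, Cfb, Erc2, Gcg, Glp2r, Gpd1, Hp, Igfbp5, Klf15, Lep, Lgals12, Nos3, Ppp1r1b, Prkaa2, Pygl, Retn, Slc2a4, Tcf7, Trf, Thbs4 and Tshr. The reverse held for 1 gene, Thrb. Among the 25 are the adipocyte hormones leptin (Lep) and resistin (Retn), the insulin-responsive glucose transporter Slc2a4 and the fat cell adrenergic receptor Adrb3. The share of all 321 genes above the limit was 62.93, 62.62, 65.11 and 62.62% in chickpea medium on days 2, 4, 6 and 8, against 62.31, 71.03, 71.96 and 73.21% in control medium on the same days and 63.55% on day 0. These are counts against the limit, with no test, and array brightness differed in the same order on each of these 4 days.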
